A study of Homo sapiens with 10 samples.

Results

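The 40 genes described here encode the glucose transporters, the glycolytic enzymes, the proteins that handle pyruvate and lactate, the oxygen-sensing factors and a set of their known targets. They were taken by symbol from a fixed list, and all 40 were found among the 58381 gene rows of each library. The cells were GIST-T1, an established human line from a metastatic gastrointestinal stromal tumour (GIST) with intact succinate dehydrogenase. The 4 derivative lines InsE, InsF, InsG and InsH, in which a CTCF insulator was knocked out, were compared with the control line, whose genotype is given as wild type. Each group had 2 libraries of polyadenylated RNA from cells grown in medium with serum. CTCF binds DNA and helps to set the borders of chromosome loops. The labels give neither the edited site of each line nor its clonality, and they are silent on whether paired libraries were grown separately. A p-value here thus reflects how far libraries scatter, and that scatter may be purely technical. With a single control line, the disruption cannot be told apart from whatever else sets that line apart.

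Glycolysis converts glucose to pyruvate, which lactate dehydrogenase can reduce to lactate for export. The hypoxia-inducible factors (HIF) are transcription factors whose alpha subunits are hydroxylated by the EGLN enzymes when oxygen is present and then bound by VHL for degradation. When hydroxylation fails, HIF raises the transcription of many glycolytic genes and of angiogenic and stress genes. In GIST that lacks succinate dehydrogenase, accumulated succinate inhibits the hydroxylases, and the cells studied here retain the enzyme.

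HIF binds DNA at a short core motif. The promoter windows of 4 members are shown because their genes behaved differently, with HK2 and GAPDH lower in several lines, LDHA differing between InsE and the other lines, and LDHB being the dominant lactate dehydrogenase of these cells. Each window runs from 250 bases before to 50 bases after a RefSeq start (GRCh38.p14), in the direction of the gene. The first listed start of each gene was taken. For GAPDH and LDHB the window lies within the annotated gene (chr12:6533927-6538374 and chr12:21635342-21757857), and which start these cells use was not tested. Capitals mark matches to ACGTG or GCGTG on either strand (CACGT and CACGC when read on the other strand).
HK2 (chr2:74833877-74834176, plus strand): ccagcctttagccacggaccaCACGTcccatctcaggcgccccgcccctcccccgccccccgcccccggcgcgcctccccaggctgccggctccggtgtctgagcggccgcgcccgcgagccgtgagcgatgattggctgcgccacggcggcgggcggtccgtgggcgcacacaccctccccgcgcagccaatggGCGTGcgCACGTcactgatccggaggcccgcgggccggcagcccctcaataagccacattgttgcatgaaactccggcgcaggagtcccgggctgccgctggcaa
GAPDH (chr12:6535014-6535313, plus strand): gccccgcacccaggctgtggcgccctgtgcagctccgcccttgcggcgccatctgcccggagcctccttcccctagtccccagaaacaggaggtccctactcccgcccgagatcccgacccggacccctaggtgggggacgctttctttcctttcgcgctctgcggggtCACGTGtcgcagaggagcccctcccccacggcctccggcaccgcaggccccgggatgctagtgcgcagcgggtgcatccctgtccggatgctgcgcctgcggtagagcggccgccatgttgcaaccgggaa
LDHA (chr11:18394313-18394612, plus strand): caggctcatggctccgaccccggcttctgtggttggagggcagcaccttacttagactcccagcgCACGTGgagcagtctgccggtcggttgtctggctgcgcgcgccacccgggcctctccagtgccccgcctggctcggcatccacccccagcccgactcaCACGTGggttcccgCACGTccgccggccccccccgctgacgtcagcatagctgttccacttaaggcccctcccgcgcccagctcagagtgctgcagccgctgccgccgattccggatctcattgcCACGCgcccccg
LDHB (chr12:21657793-21658092, minus strand): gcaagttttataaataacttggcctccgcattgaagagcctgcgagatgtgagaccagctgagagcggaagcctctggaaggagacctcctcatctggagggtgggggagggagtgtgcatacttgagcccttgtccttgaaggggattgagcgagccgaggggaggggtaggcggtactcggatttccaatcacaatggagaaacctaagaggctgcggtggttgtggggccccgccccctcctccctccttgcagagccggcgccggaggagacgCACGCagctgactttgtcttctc
The LDHA window held 6 matches, the HK2 window 3, the GAPDH window 2 and the LDHB window 1, where the palindrome CACGTG counts as a pair of overlapping matches. Of the 40 members, 33 had a window in the RefSeq table, and 24 of these (72.7%) held at least 1 match, against 48.4% of all 35116 windows. The ACGTG form alone was found in 14 of the 33 (42.4%), against 21.4% of all windows. The member shares used 1 window per gene and the background every window in the table, and the sets were not matched for base content. Known HIF targets were on the list by choice, so no conclusion is drawn from the higher share. A match describes the letters of the window and is not a measured binding site.

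The libraries numbered 2 held 9.4 to 20.1 M (mega) expected counts, against 22.9 to 42.5 M in those numbered 1. The GIST markers KIT, ANO1, ETV1 and CD34 were high in every library. PDGFRA and PRKCQ were lower, with means of 31.9 and 11.995 TPM (a transcript share corrected for gene length). The summed level of 8 such markers was 2642 to 2831 TPM in the lines, against 3505 to 3523 TPM in the control. The mean of the lines was below control for KIT (log2 change -0.8), ANO1 (-0.77), PRKCQ (-0.47), FOXF1 (-0.44) and CD34 (-0.21). ETV1 and HAND1 (-0.15 each) and PDGFRA (0.11) did not pass the main test described below. PDGFRA was higher in InsG (0.32) and InsH (0.2) and lower in InsE (-0.2). Of the other cell types, 4 leukocyte markers summed to 0.12 to 1.78 TPM in the lines and 0.61 to 0.81 TPM in the control, and 4 endothelial markers to 0.2 to 0.73 TPM in the lines and 0.28 to 0.29 TPM in the control. Smooth muscle markers summed to 5.06 and 4.78 TPM in InsE and 12.35 to 25.59 TPM in InsF, InsG and InsH, against 5.64 and 5.49 TPM in the control, with DES at 0 throughout. Epithelial markers summed to 194 to 255 TPM in the lines and 268 to 278 TPM in the control, nearly all of it KRT18 and KRT8, with KRT19 at 0. The part of these markers in the results below was not tested.

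The libraries of a group did not vary alike, which bears on every test below. The 2 control libraries differed by little more than counting noise, with a chi-square of 1.39 per degree of freedom over 14678 genes, against 6.64 to 7.73 in the 4 lines. Within the lines, the libraries numbered 2 differed from those numbered 1 in a way that all 4 lines shared, and the control libraries did not show it. Main tests used edgeR's quasi-likelihood model over all 10 libraries, with Benjamini-Hochberg adjustment over 15554 genes and a threshold of 0.05. As a check chosen after the data were seen, the 2 control libraries were also summed into 1.

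The members spanned a wide range of levels, led by GAPDH, ALDOA and LDHB. GAPDH, which oxidises glyceraldehyde 3-phosphate, averaged 2367 TPM over the 10 libraries, the aldolase gene ALDOA 1463 TPM and the lactate dehydrogenase gene LDHB 1083 TPM. In all, 11 members lay above 100 TPM, 16 between 10 and 100, 10 between 1 and 10, and 3 below 1. From PFKL downward the ranges of most neighbours in this order overlapped, and so did those of TPI1 (753 to 850 TPM) and ENO1 (629 to 776 TPM). The 15 glycolytic enzyme genes together held 0.685% to 0.780% of all TPM in the lines, against 0.794% and 0.801% in the control libraries.

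**Figure D1:**
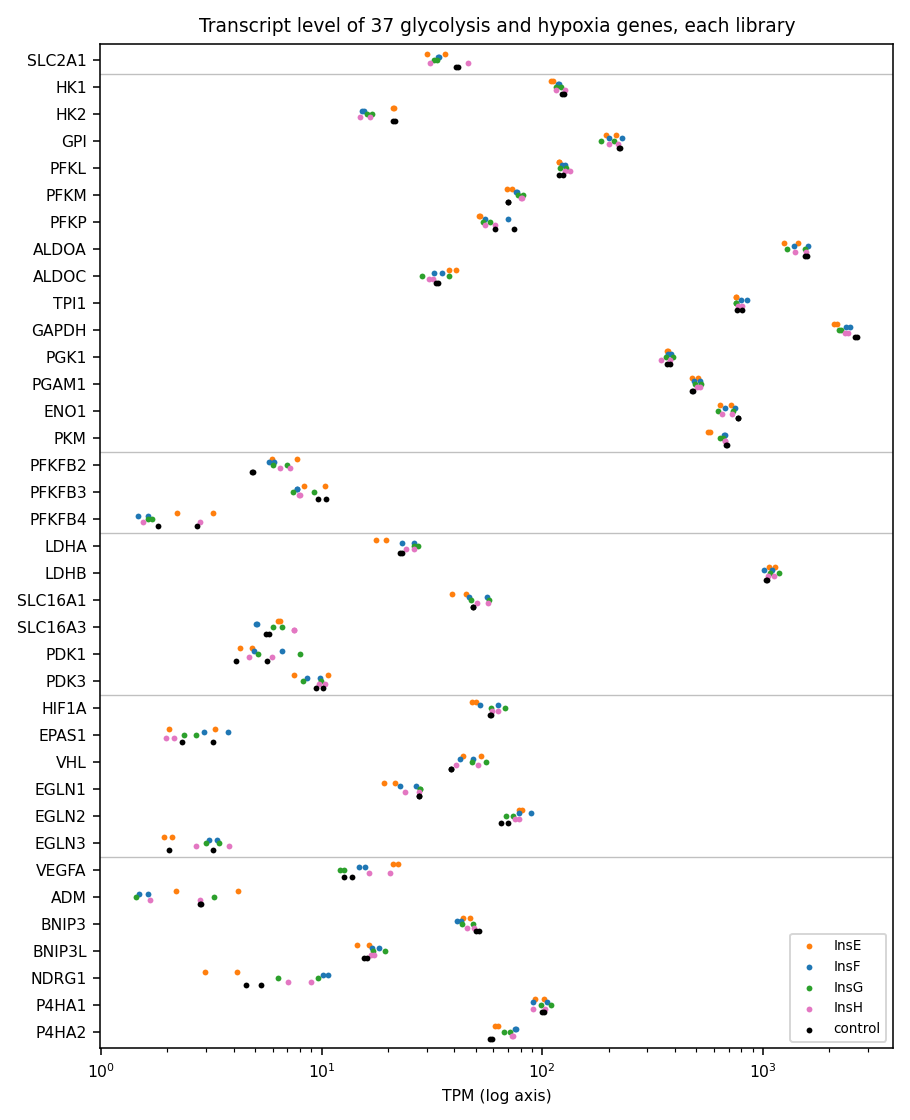
Level of each of the 37 members with a mean of at least 1 TPM, on a log axis, with 1 point per library coloured by group (InsE, InsF, InsG, InsH, control) and horizontal rules between functional classes. GAPDH, ALDOA and LDHB sit at the top, with means of 2367, 1463 and 1083 TPM.

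At several steps 1 isoenzyme supplied nearly all of the transcripts. LDHB made up 97.6% to 98.4% of the LDHA and LDHB transcripts, so that LDHA, the form that is commonly raised by HIF, stood at only 17.7 to 27.3 TPM. ALDOA held 97.0% to 98.0% of the aldolase pair, and HK1 held 83.7% to 89.4% of the hexokinase pair. ENO2, the neuronal enolase, and CA9, a carbonic anhydrase widely used as a marker of HIF activity, were too low to test. CA9 had 1 count in a single library of InsF and 1 in a single library of InsH, and 0 elsewhere. HIF1A held 93.2% to 97.0% of the HIF1A and EPAS1 transcripts, and EGLN2 held 68.6% to 79.3% of those of the 3 EGLN genes.

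Of the 38 tested members, 12 passed when the average of the 4 lines was set against control, 7 higher and 5 lower. That is 31.6%, against 27.6% of all genes tested (13.1% higher and 14.5% lower), so the share lay near the background. The median log2 change of the members was -0.06, against 0.01 over all genes. InsE had 10 called members, 4 higher and 6 lower, against a background of 23.2% (10.8% higher and 12.4% lower). InsF had 10, 5 in each direction, against 22.3% (10.9% and 11.3%). InsG had 9, 4 higher and 5 lower, against 20.3% (9.86% and 10.5%). InsH had 8, 5 higher and 3 lower, against 18.4% (8.95% and 9.46%). Most of these calls, like most of those over all genes, were lost with the control libraries summed into 1. In the mean of the lines, 2 calls, those of GAPDH and HK2, held in every fit without 1 library and with the control summed.

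**Figure D2:**
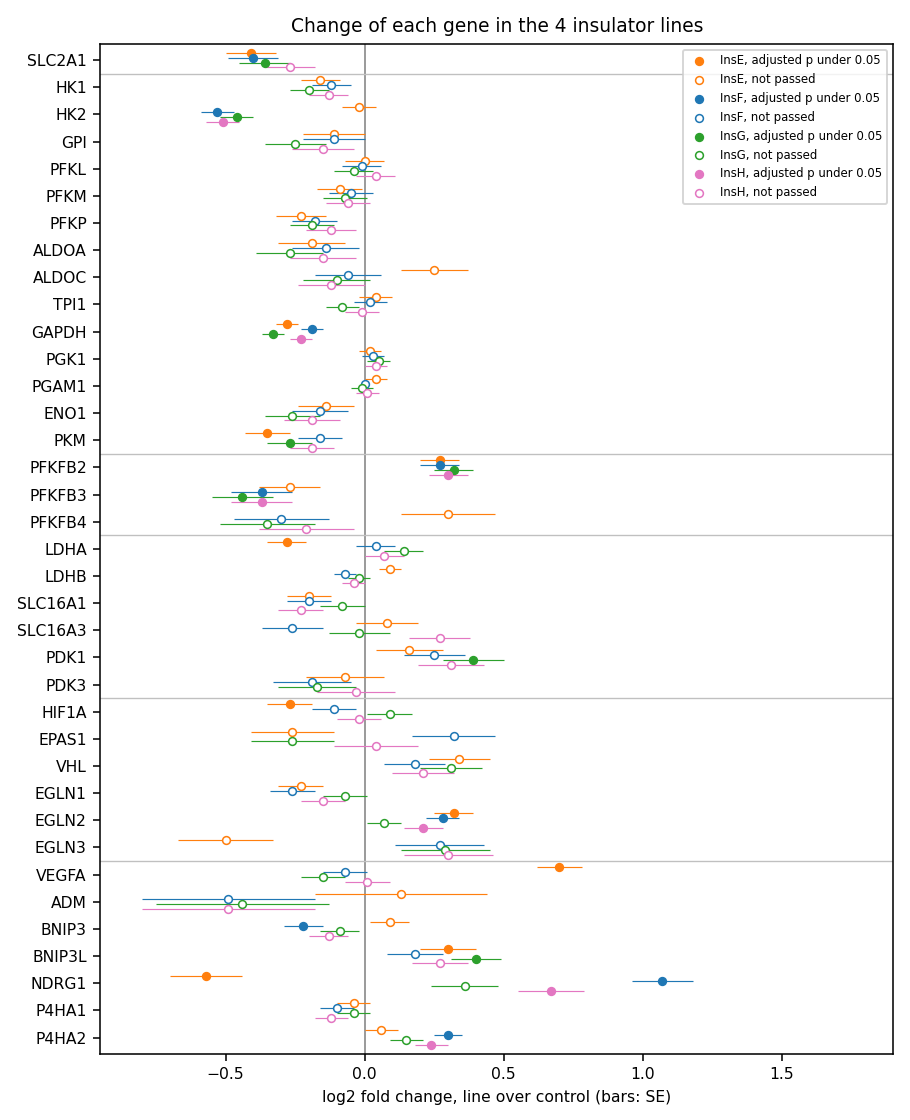
Log2 fold change of 37 tested members in InsE, InsF, InsG and InsH over control, with SE bars; filled points passed edgeR's adjusted threshold of 0.05 and open points did not. SLC2A3 is left off for its low counts. HK2 lies below 0 in InsF, InsG and InsH (-0.53, -0.46 and -0.51) but not in InsE (-0.02), VEGFA rises in InsE alone among the called points (0.70), and NDRG1 is lower in InsE (-0.57) and higher in InsF (1.07).

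Among the glucose transporters, SLC2A1 (GLUT1), the main basal transporter, was lower in the lines. InsE had 48.5 and 55.0 CPM (counts scaled to a common library size with TMM factors), InsF 49.95 and 53.7, InsG 50.8 and 55.8, and InsH 52.2 and 61.5, against 67.9 and 68.4 CPM in the control. In CPM no line library reached a control library, whereas in TPM InsH replicate 2 (46.3) exceeded both control libraries (41.5 and 40.8). The change in the mean of the lines was -0.36 ± 0.07 (log2 ± SE, edgeR adjusted p = 0.00546), and it did not pass with the control summed (0.056) or with limma on log2(TPM + 1) (-0.25, 0.241). SLC2A3 (GLUT3) was barely detected, with 7, 23, 40 and 27 counts over both libraries of InsE, InsF, InsG and InsH, against 3 counts in the control. The ratio to control, scaled by library size, was 2.83 in InsE (95% counting interval 0.645 to 16.9), 8.62 in InsF (2.61 to 44.9), 12.2 in InsG (3.88 to 61.5) and 12.6 in InsH (3.87 to 64.8). SLC2A3 was among the members called as higher in InsF, InsG, InsH and the mean of the lines (2.88 in the mean, edgeR adjusted p = 0.0103). In the mean, limma on log2(TPM + 1) gave 0.20 and did not pass (adjusted p = 0.39). Without InsE replicate 1 the edgeR change was 1.66. The near-identical paralog SLC2A14 makes the assignment of such few reads uncertain.

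Of the 14 tested glycolytic enzyme genes, 3 fell in the mean of the lines (GAPDH, HK2 and PKM), none rose and 11 did not pass, with a median of -0.15. The share called was 21.4%, against 27.6% of all genes, and so below the background. For GAPDH, InsE had 1538 and 1545 CPM, InsF 1653 and 1647, InsG 1492 and 1499, and InsH 1606 and 1603, against 1900 and 1856 CPM in the control. All line libraries lay below both control libraries, and the 2 libraries of each line lay close together. The change was -0.26 ± 0.03 in the mean (edgeR adjusted p = 0.000236, and 0.00936 with the control summed), -0.28 in InsE and -0.33 in InsG. In InsF (-0.19) and InsH (-0.23) the call did not survive leaving out control replicate 1, which gave adjusted p = 0.0913 for InsF and 0.0541 for InsH, nor limma on log2(TPM + 1), where the changes were -0.12 (0.0918) and -0.15 (0.0571). An antisense gene, RP5-940J5.9, overlaps GAPDH exons. It had 0 to 0.216 CPM in the line libraries numbered 1 and 4.70 to 12.2 CPM in those numbered 2, against 23.6 and 23.7 CPM in the control. With both genes summed, the log2 difference of the line mean from control was -0.27, against -0.26 for GAPDH alone.

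HK2, the inducible hexokinase that traps glucose in the cell, fell in 3 of the lines. InsF had 54.4 and 56.0 CPM, InsG 58.3 and 57.4, and InsH 57.1 and 54.2, against 80.6 and 78.4 CPM in the control. InsE, at 76.5 and 80.3 CPM, overlapped the control. The changes were -0.53, -0.46 and -0.51 in InsF, InsG and InsH, each with an SE of 0.06 (edgeR adjusted p = 0.000264, 0.000686 and 0.000398 in that order), and -0.02 ± 0.06 in InsE (adjusted p = 0.812). The lines differed among themselves (edgeR adjusted p = 0.00103). The overlapping antisense gene RP11-259N19.1 stood at 0.11 in the mean of the lines (adjusted p = 0.484). HK1, the constitutive hexokinase, stood at -0.15 ± 0.06 and did not pass (adjusted p = 0.0656).

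**Figure D3:**
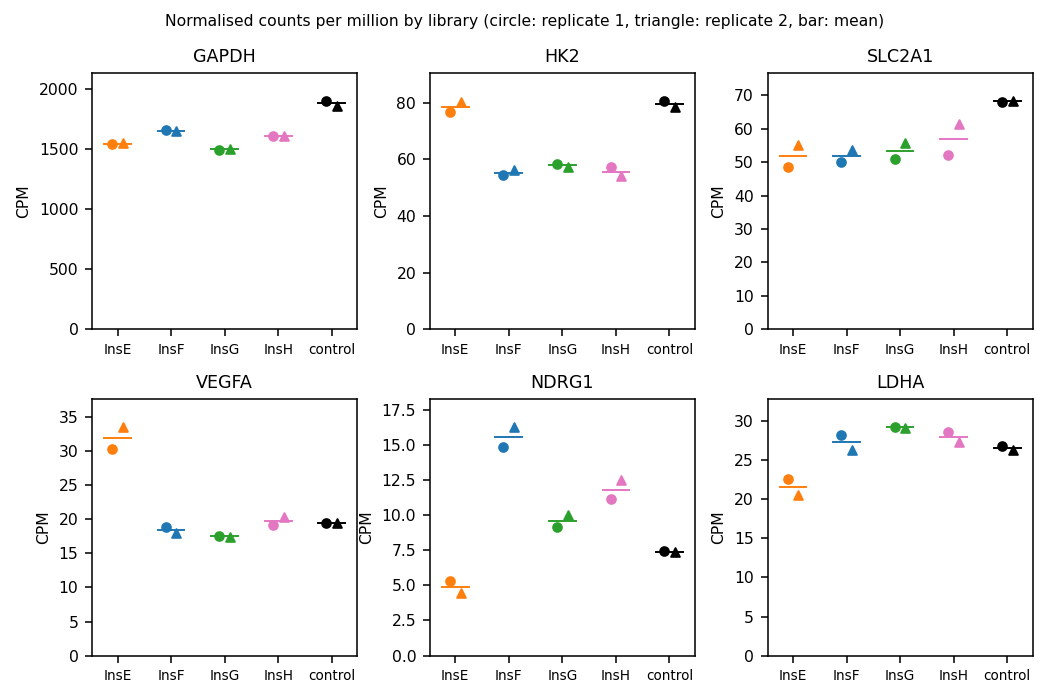
CPM in each library for GAPDH, HK2, SLC2A1, VEGFA, NDRG1 and LDHA, from left to right InsE, InsF, InsG, InsH and control, with circles for replicate 1, triangles for replicate 2 and a bar at the mean; each axis starts at 0. GAPDH and SLC2A1 are below the control in all lines, and VEGFA is highest in InsE (30.3 and 33.5 CPM).

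PKM, the pyruvate kinase gene, stood at -0.24 ± 0.06 in the mean (edgeR adjusted p = 0.0156), a call lost without control replicate 1 or 2 (0.137 and 0.11) and with limma on log2(TPM + 1), where the change was -0.09 (0.102). ALDOA and ENO1, the main enolase gene, were below both control libraries in every line library but did not pass (-0.19 each, adjusted p = 0.172 and 0.102). For ALDOA, PKM, ENO1 and the glucose 6-phosphate isomerase gene GPI the line libraries numbered 2 were closer to the control. ALDOA had 1073, 1113, 1017 and 1097 CPM in the libraries numbered 2 of InsE, InsF, InsG and InsH and 906, 932, 853 and 930 CPM in those numbered 1, beside 1124 and 1132 CPM in the control. The phosphoglycerate kinase gene PGK1, the mutase gene PGAM1, TPI1 and PFKL stood at 0.03, 0.01, -0.01 and -0.00 in the mean and did not pass.

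The shift between the numbered libraries was tested in the 8 line libraries alone, with the line as a term. There 22 of 38 members passed, 13 higher and 9 lower in the libraries numbered 2, or 57.9% against 40.8% of all genes (20.2% higher and 20.6% lower). Among the glycolytic enzymes 10 of 14 were higher and 1 lower, with log2 differences of 0.25 for ALDOA, 0.23 for GPI, 0.20 for ENO1 and 0.15 for PKM, while GAPDH stood at 0.00. VHL (-0.22) and HIF1A (-0.13) were among the lower ones. In this fit the common dispersion was 9.77e-05, against 0.00546 in the fit of all 10 libraries, so that almost no spread beyond counting error remained. Its p-values therefore measure counting error, and none is given for single genes.

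**Figure D4:**
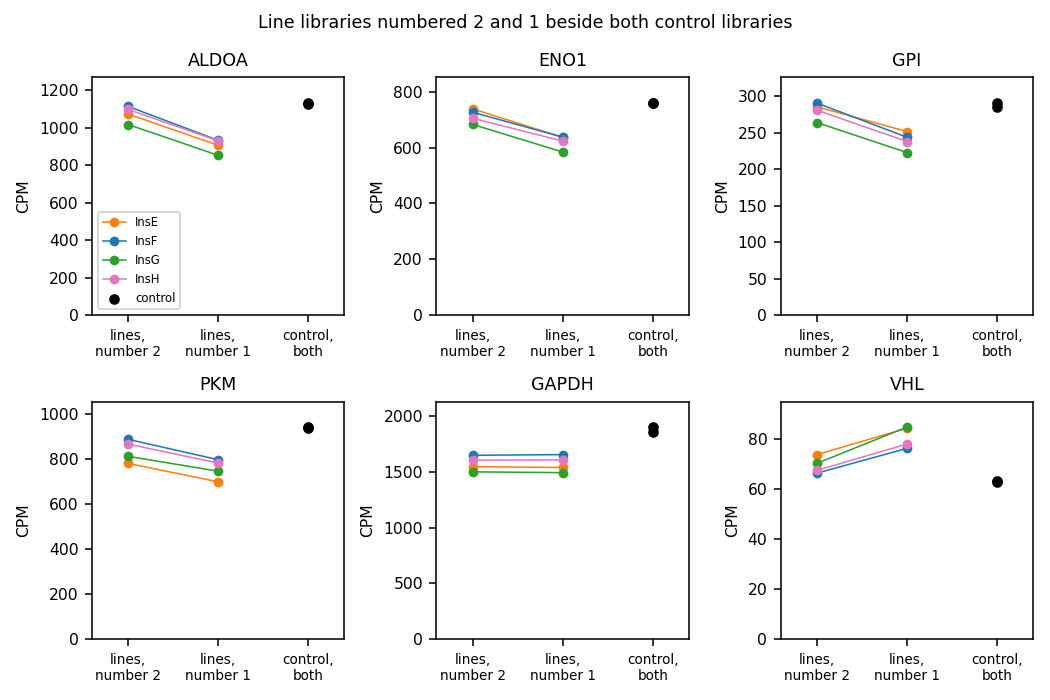
CPM of ALDOA, ENO1, GPI, PKM, GAPDH and VHL in the line libraries numbered 2 (left), the line libraries numbered 1 (middle) and both control libraries (right), with a line joining the 2 libraries of each insulator line and axes starting at 0. ALDOA is 1017 to 1113 CPM on the left and 853 to 932 CPM in the middle, while GAPDH is level between them.

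The PFKFB enzymes set the level of fructose 2,6-bisphosphate, an activator of phosphofructokinase. Exons of PFKFB2 overlap those of YOD1 on the other strand, which averaged 18.1 TPM, against 6.2 TPM for PFKFB2. YOD1 stood at -0.04 in the mean of the lines (edgeR adjusted p = 0.807). PFKFB2 was above the control in all line libraries, with 25.1 to 26.6 CPM in the lines against 20.2 and 21.8 CPM in the control, and rose by 0.29 ± 0.05 in the mean (edgeR adjusted p = 0.0041, 0.0916 without control replicate 2, and 0.0695 with limma on log2(TPM + 1)). PFKFB3, a HIF target with high kinase activity, was below it, with 17.3 to 22.0 CPM in the lines against 24.3 and 26.6 CPM in the control. Its change was -0.36 ± 0.08 (edgeR adjusted p = 0.0103, 0.0748 with the control summed, and 0.16 with limma on log2(TPM + 1)). PFKFB4 did not pass against control in any line, but InsE exceeded the other lines by 0.59 ± 0.14 (edgeR adjusted p = 0.0127, 0.0923 without InsE replicate 2, and 0.176 with limma on log2(TPM + 1)).

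Of the 6 lactate and pyruvate genes, 1 passed in the mean. That was PDK1, a kinase that inhibits pyruvate dehydrogenase, at 0.28 ± 0.09 (edgeR adjusted p = 0.047). The call was lost with the control summed (0.216) and with limma on log2(TPM + 1), where the change was 0.15 (0.629). PDK1 had 12.5 to 16.1 CPM in the line libraries, against 12.03 and 10.8 CPM in the control, with no overlap. The lactate exporter genes SLC16A1 and SLC16A3 stood at -0.18 and 0.02 and did not pass. Exons of SLC16A3 overlap those of CSNK1D on the other strand, which averaged 114 TPM, against 6.2 TPM for SLC16A3.

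Among the 6 oxygen-sensing genes, HIF1A, which encodes an oxygen-labile HIF subunit, was lowest in InsE. InsE had 113 and 106 CPM, InsF 130 and 114, InsG 147 and 135, and InsH 135 and 125, against 133 and 131 CPM in the control. Both InsE libraries lay below every other library, while the other lines spread to either side of the control. InsE differed from the other lines by -0.26 ± 0.06 (edgeR adjusted p = 0.0172, 0.145 without InsE replicate 2, and 0.0514 with limma on log2(TPM + 1)) and from control by -0.27 ± 0.08 (edgeR adjusted p = 0.033, and 0.143 with the control summed). EPAS1, which encodes HIF-2alpha, had 4.48 to 7.32 CPM in the lines, against 6.27 and 5.29 CPM in the control, and did not pass in any line. EGLN2, the most abundant hydroxylase gene here, had 80.7 to 98.9 CPM in the lines, against 76.3 and 78.9 CPM in the control. It rose by 0.22 ± 0.05 in the mean (edgeR adjusted p = 0.0123, 0.108 with the control summed, and 0.0695 with limma on log2(TPM + 1)). VHL (0.26) and EGLN1 (-0.18) were outside the control range in all 8 line libraries but did not pass (adjusted p = 0.0554 and 0.0694).

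VEGFA and HK2 were higher, and NDRG1, EGLN3 and LDHA lower, in InsE than in the other lines. Between InsE and the mean of InsF, InsG and InsH, 12 of 38 members passed, 6 higher and 6 lower, or 31.6% against 24.2% of all genes (11.4% higher and 12.8% lower). With the replicate number as a block in the 8 line libraries the count was 24, with 14 higher and 10 lower, against a background of 50.7% (25.3% higher and 25.4% lower). Among the 4 lines 7 members differed (background 13.2%), and 30 with that block (56.8%). As above, the blocked counts measure counting error. For InsE against the other lines, the calls of VEGFA, NDRG1, EGLN3, LDHA and HK2 held without any 1 library and with the control summed. How many calls over all genes held so was not counted. With limma on log2(TPM + 1) the call of EGLN3 was lost. The summed level of the smooth muscle markers, given above, split the lines along the same border. ACTG2, a smooth muscle actin gene, differed by -1.94 ± 0.13 between InsE and the other lines (edgeR adjusted p = 1.3e-05). MYH11, another of these markers, did not pass there (-0.46, edgeR adjusted p = 0.473). The part of these markers in the results on InsE was not tested.

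VEGFA, the angiogenic growth factor gene and a standard HIF target, was higher in InsE. InsE had 30.3 and 33.5 CPM, InsF 18.9 and 18.0, InsG 17.5 and 17.5, and InsH 19.1 and 20.3, against 19.5 and 19.4 CPM in the control. The InsE libraries exceeded all others. It rose by 0.70 ± 0.08 against control (edgeR adjusted p = 0.000225) and by 0.77 ± 0.06 against the other lines (2.86e-05). With limma on log2(TPM + 1) the difference from the other lines was 0.49 (adjusted p = 0.0112). An antisense gene, AL136131.3, overlaps VEGFA exons and averaged 3.885 TPM, against 16.2 TPM for VEGFA. The part of its reads in the VEGFA result was not tested.

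NDRG1, a stress-response gene induced by hypoxia, went the other way. InsE had 5.28 and 4.44 CPM, InsF 14.8 and 16.3, InsG 9.16 and 10.0, and InsH 11.1 and 12.5, against 7.41 and 7.39 CPM in the control. The 5 groups did not overlap. The change was 1.07 ± 0.11 in InsF (edgeR adjusted p = 0.000188) and 0.67 ± 0.12 in InsH (0.00384), and InsE differed from the other lines by -1.27 ± 0.11 (4.33e-05). The fall in InsE against control (-0.57, adjusted p = 0.0105) was lost without control replicate 1 (0.0658), and with limma on log2(TPM + 1) the call in InsH was lost (0.60, adjusted p = 0.118), as was that in InsE (-0.39, 0.257).

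For LDHA, InsE had 22.6 and 20.6 CPM, InsF 28.3 and 26.4, InsG 29.3 and 29.1, and InsH 28.6 and 27.3, against 26.8 and 26.4 CPM in the control. InsE was below every other library, by -0.37 ± 0.06 against the other lines (edgeR adjusted p = 0.00246). Of the LDHA and LDHB transcripts, LDHA made up 1.67% ± 0.057 for InsE, 2.27% ± 0.060 for InsF, 2.32% ± 0.092 for InsG and 2.27% ± 0.032 for InsH, against 2.15% ± 0.0011 in the control (SD, n = 2 each). EGLN3, the HIF-induced hydroxylase gene, had 2.72 and 2.54 CPM in InsE against 4.23 to 5.14 CPM in the other lines, a difference of -0.79 ± 0.14 (edgeR adjusted p = 0.00355). With limma on log2(TPM + 1) it was -0.48 and did not pass (adjusted p = 0.0758). HK2 was higher in InsE than in the other lines by 0.48 ± 0.05 (edgeR adjusted p = 0.000118).

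**Figure D5:**
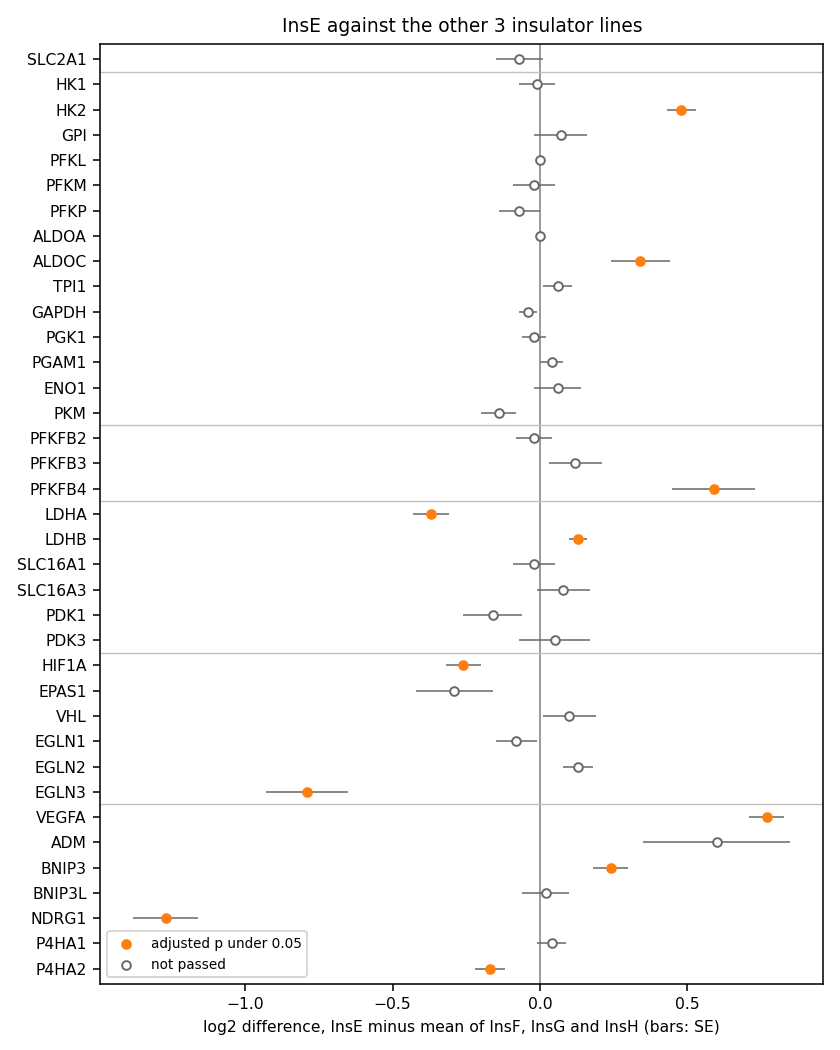
Log2 difference of InsE from the mean of InsF, InsG and InsH for 37 members, with SE bars; filled points passed edgeR's adjusted threshold of 0.05. VEGFA (0.77) and HK2 (0.48) lie to the right, and NDRG1 (-1.27), EGLN3 (-0.79) and LDHA (-0.37) to the left.

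Of the remaining HIF targets, P4HA2, a collagen prolyl hydroxylase gene, was above the control in all line libraries. InsE had 85.5 and 86.1 CPM, InsF 99.0 and 104, InsG 90.7 and 91.6, and InsH 94.4 and 99.7, against 82.1 and 82.4 CPM in the control. It rose in InsF by 0.30 ± 0.05 (edgeR adjusted p = 0.00391), a call that held in every fit without 1 library and with limma on log2(TPM + 1) (0.36, adjusted p = 0.01). BNIP3L, a mitophagy receptor gene, stood at 0.29 in the mean (adjusted p = 0.0203). The call was lost with the control summed (0.15) and with limma on log2(TPM + 1), where the change was 0.10 (0.418). It overlaps PNMA2 on the other strand, which stood at 0.30 (adjusted p = 0.0185), and reads there cannot be assigned without a known strand setting. BNIP3, a related mitophagy gene, did not pass in the mean of the lines, and InsE (77.4 and 72.8 CPM) exceeded the other lines (57.2 to 67.1 CPM) by 0.24 ± 0.06 in CPM (edgeR adjusted p = 0.0158). The call was lost without InsE replicate 1 (0.171), and with limma on log2(TPM + 1) the difference was 0.01 (0.91). The vasodilator peptide gene ADM was low, with 1.24 to 2.96 CPM in the lines, against 2.15 and 2.62 CPM in the control. Neither it nor P4HA1 passed in the mean of the lines.

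For related genes outside the list, the share called can be set beside the 27.6% of all genes. Of 40 tested further HIF targets, 5 rose and 6 fell in the mean, which is 27.5%, among them the rises of ANGPT1 and FLT1 (1.24) and the falls of BHLHE40 (-0.77) and TFRC (-0.73). ANGPT1, an angiopoietin gene, had 18.6 to 36.6 CPM in the lines, against 10.2 and 10.5 CPM in the control. Of 12 tested genes of the HIF machinery, 3 fell and none rose, a share close to that of all genes. These were the coactivator genes EP300 (-0.51) and CREBBP (-0.47) and the HIF-competing gene CITED2 (-0.49). EP300 had 62.1 to 76.3 CPM in the lines, against 96.5 and 96.9 CPM in the control. Of 8 pentose phosphate genes (37.5% called), RPIA rose (0.29), and TKT (-0.33) and PGD (-0.22) fell. Of 7 other glycolysis genes (28.6%), BPGM rose (0.41) and ADPGK fell (-0.20), and of 9 genes of succinate dehydrogenase and fumarase (11.1%), SDHB rose (0.14, edgeR adjusted p = 0.0468).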

How the data were processed

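The authors deposited, for each of 10 libraries, expected counts (RSEM's estimated counts per gene) and TPM. The build hg38 and the tools DESeq2 1.38.3, RSEM 1.3.2 and STAR 2.5.3 are named per the submitters' processing notes. Neither annotation release nor strand setting is stated in the sources used here. A further deposited table with 10 value columns was not used, since its column names matched no label. After rounding, edgeR 4.0.16 in R 4.3.3 fitted the expected counts by robust quasi-likelihood (TMM scaling, minimum count of 10), with 5 residual degrees of freedom and a two-sided threshold of 0.05. Alternatives used limma 3.58.1 on log2(TPM + 1) and log2(TPM + 0.1), DESeq2 1.42.0, other scalings and filters, a replicate block and each library left out. Gene positions came from GENCODE on hg38. All 40 members entered the summary of levels, but PFKM, ALDOC and PDK3 are not described singly. From further lists, up to 4 called genes with the largest change in the mean were named. Members and lists were chosen with earlier results of these data known.

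Replicate numbers were checked for pairing by correlating, over 12080 genes, the difference of library 2 from library 1 between groups. The correlation was 0.60 to 0.66 between lines and 0.02 to 0.07 between control and lines, so the numbers pair the line libraries only, as seen in the data and not stated in the labels. Fits of the 8 line libraries alone and with the control libraries summed were added after the data were seen. Counting intervals (95%) cover counting error only.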

Additional observations from a re-analysis of the deposited data

Results flagged for a closer look

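The change against control differed among the 4 lines for 7 members by edgeR's test of the difference itself. The adjusted p was 0.000161 for NDRG1, 0.000236 for VEGFA and 0.00103 for HK2. These calls held in every fit without 1 library and with the control libraries summed, a check made for the members only. In the main fit the adjusted p was 0.0164 for LDHA, 0.0259 for EGLN3, 0.0473 for SLC16A3 and 0.0486 for HIF1A. These 4 were lost in some of those fits, with largest adjusted p of 0.123 for LDHA, 0.189 for EGLN3, 0.14 for SLC16A3 and 0.212 for HIF1A.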

How the results depend on the processing

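Counts of called members depended on the fit, and the share of all genes called moved with them. With the replicate number as a block in all 10 libraries the counts were 21 in InsE (55.3% of members, against 38.2% of all genes), 19 of 38 in InsF (against 37.8%), 17 in InsG (44.7% against 37.1%), 19 of 38 in InsH (against 34.2%), 21 in the mean of the lines (55.3% against 42.9%) and 16 among the lines (42.1% against 35.0%), although the control libraries did not pair with the lines by number. For InsE against the others the block gave 14 (36.8% against 38.2%). In the mean the block added 9 members, HK1, GPI, PFKP, ALDOA, ENO1, SLC16A1, VHL, EGLN1 and P4HA1. In the 8 line libraries with the replicate block the count was 30 among the lines (78.9% against 56.8% of all genes). For InsE against the others it was 24 (63.2% against 50.7%). The dispersion of that fit was at the lower end of edgeR's range. With no count filter the counts were 17 in InsE (42.5% against 14.8% of all genes), 14 in InsG (35.0% against 13.7%), 19 in the mean (47.5% against 17.4%) and 11 among the lines (27.5% against 12.6%), with 29039 genes tested. The count filter of the main fit kept 38 of the 40 members but only 15554 genes, so these shares compare unlike sets. With limma on log2(TPM + 1), and equally on log2(TPM + 0.1), they were 4 in InsE, 4 in InsF, 2 in InsG, 3 in InsH and 3 in the mean, or 5.26% to 10.5% of members, against 8.54% to 14.4% of all genes. Both limma fits gave 5 among the lines (13.2%, against 6.33% and 6.29%) and 8 for InsE against the others (21.1% against 17.4%). With DESeq2 they were 7 in InsE (18.9% against 18.0%), 6 in InsF (16.2% against 15.4%), 6 in InsG (16.2% against 14.6%) and 4 in InsH (10.8% against 13.2%). The DESeq2 counts were 11 in the mean (29.7% against 20.9%), 4 among the lines (10.8% against 12.6%) and 9 for InsE against the others (23.7% against 15.8%). With the control libraries summed into 1, an alternative chosen after seeing the data, they were 2 in InsE, 3 in InsF, 3 in InsG, 4 in InsH, 3 in the mean and 3 among the lines, or 5.26% to 10.5% of members, against 7.25% to 10.4% of all genes. Leaving out 1 library gave 2 to 11 in InsE, 3 to 10 in InsF, 2 to 11 in InsG, 2 to 7 in InsH, 2 to 15 in the mean, 3 to 6 among the lines and 6 to 12 for InsE against the others. The lowest counts against control came without a control library, and so did the lowest shares of all genes called against control. BNIP3L in InsE was reversed by limma on log2(TPM + 1) and on log2(TPM + 0.1) (-0.03 in both). The cause was not tested.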
